A study of Homo sapiens with 2 samples.

Results

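Accessible chromatin in the later introns of protein-coding genes, away from every transcription start site (TSS), was described in CAMA-1 cells. Of 209570 autosomal regions that both replicates shared, 30869 (14.7%, Wilson 95% interval 14.6 to 14.9%) lay there. A shared region was a run of overlapping peaks to which both replicates contributed. It was counted here when its midpoint fell in an intron of a protein-coding gene of GENCODE release 44, in no first intron and no exon of any annotated transcript, and more than 3 kb from every annotated TSS. The choice used the position of the midpoint alone and no measured strength, and 2388 of the regions (7.74%) were wide enough to reach an exon and 2 to reach a TSS. The count depended on the peak threshold and the annotation: it was 5204 (11.4%) from the 50000 strongest peaks of each replicate, 19336 (9.23%) beyond 10 kb from every TSS and 46535 (22.2%) with basic transcripts alone. For comparison, 32981 shared regions lay in first introns and 49200 were intergenic, 3 to 100 kb from a TSS, both sets also more than 3 kb from every TSS.

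CAMA-1 is an epithelial cell line from a breast tumour. The cells were cultured without treatment, and each of 2 biological replicates was assayed by ATAC-seq, in which the transposase Tn5 inserts adapters where DNA is free of nucleosomes. Both replicates measured a single condition in a single cell line, so no group could be tested against another, and values are given for each replicate. Regions, genes and bases are not replicates, and the intervals given cover counting error only.

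Introns hold a large part of the enhancers of mammalian genes. An enhancer is a stretch of DNA that binds transcription factors, loses its nucleosome in the cell types where it is used, and can act on a promoter at a distance, in the host gene or in another one. First introns begin next to the promoter and are known to be rich in regulatory sequence, whereas later introns lie further along the transcribed body. The factor CTCF binds many sites within gene bodies, where it helps to anchor chromatin loops.

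In the cells assayed, promoters of luminal epithelial markers were accessible. A shared region lay within 1 kb of a TSS of EPCAM, KRT8, KRT18, KRT19, GATA3, ESR1, FOXA1 and SPDEF. The promoters of the mesenchymal genes VIM, ZEB1 and COL1A2 also held one, while that of ZEB2 and those of the blood cell genes PTPRC, SPI1 and CD3E did not. By the same rule, 10275 of the 12233 coding genes counted below had an accessible promoter. The presence of a region alone therefore says little about cell type. The replicates had 245736 and 259745 peaks on all chromosomes. The number of reads is not given in the peak lists, so precision was taken from peak heights, which ranged from 11 to 1744 stacked reads in replicate 1 and from 11 to 1759 in replicate 2. Fold enrichment, the ratio of peak height to the background of the peak caller (each plus 1 read), moved in steps of 0.230 and 0.221, the worth of 1 stacked read.

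The strongest later-intron regions are shown first as sequence, because they set the upper end of the values that follow. Each line gives the middle 201 bases of a region on the forward strand of hg38, 5′ to 3′, and capitals mark letters of the 12 motifs searched.

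TPCN2 and ENSG00000287725 region, chr11:69123274-69123474: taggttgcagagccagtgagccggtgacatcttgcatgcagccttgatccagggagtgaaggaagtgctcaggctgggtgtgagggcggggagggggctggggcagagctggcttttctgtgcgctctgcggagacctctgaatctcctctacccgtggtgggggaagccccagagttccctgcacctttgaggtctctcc

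QSOX1 region, chr1:180169062-180169262: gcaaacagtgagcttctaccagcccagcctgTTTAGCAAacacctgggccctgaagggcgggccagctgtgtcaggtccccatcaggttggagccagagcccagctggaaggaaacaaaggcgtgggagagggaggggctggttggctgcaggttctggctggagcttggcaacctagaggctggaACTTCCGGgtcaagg

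NAV1 region, chr1:201598293-201598493: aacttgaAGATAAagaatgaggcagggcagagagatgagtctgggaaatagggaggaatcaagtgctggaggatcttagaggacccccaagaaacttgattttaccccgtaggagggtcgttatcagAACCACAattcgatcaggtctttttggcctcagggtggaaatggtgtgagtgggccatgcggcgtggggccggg

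The region in TPCN2, which encodes a cation channel of lysosomes, and in the overlapping gene ENSG00000287725 held none of the searched letters in these 201 bases. The QSOX1 sequence held the CEBP letters and the ETS letters, and the NAV1 sequence held the GATA and RUNX letters. The sequences below stand for the motifs that the later results turn on. Each is the middle 101 bases of the strongest region with a match within 50 bp of its midpoint, forward strand of hg38, with the match in capitals. For the estrogen response element a stronger region was passed over, as it lay on a chromosome whose sequence was not printed. Where a motif is not its own reverse complement, the capitals may show it as read on the other strand.

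POLD3 region, CTCF letters, chr11:74634733-74634833: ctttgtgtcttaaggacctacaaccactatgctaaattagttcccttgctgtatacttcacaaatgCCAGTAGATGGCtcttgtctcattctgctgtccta

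C6orf132 region, AP-1 letters, chr6:42118050-42118150: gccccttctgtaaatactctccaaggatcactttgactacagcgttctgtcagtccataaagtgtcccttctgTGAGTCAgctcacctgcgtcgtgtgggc

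PER2 region, FOX letters, chr2:238259568-238259668: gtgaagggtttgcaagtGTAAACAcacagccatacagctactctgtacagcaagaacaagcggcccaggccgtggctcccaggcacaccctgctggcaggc

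RPS3 region, AP-2 letters, chr11:75421506-75421606: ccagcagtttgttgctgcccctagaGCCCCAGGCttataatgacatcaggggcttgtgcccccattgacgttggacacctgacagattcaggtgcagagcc

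ACSS1 region, GRHL letters, chr20:25017546-25017646: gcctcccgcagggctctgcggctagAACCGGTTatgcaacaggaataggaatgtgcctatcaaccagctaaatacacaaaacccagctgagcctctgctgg

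POC1B region, estrogen response element letters, chr12:89465134-89465234: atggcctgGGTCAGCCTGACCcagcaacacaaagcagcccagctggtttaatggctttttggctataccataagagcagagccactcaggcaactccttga

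GALNT10 region, GATA letters, chr5:154296786-154296886: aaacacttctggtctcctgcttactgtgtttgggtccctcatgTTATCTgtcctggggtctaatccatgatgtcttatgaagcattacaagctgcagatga

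The tallest of all autosomal shared regions in both replicates was a later-intron region. It spanned chr11:69121845-69124902 in intron 13 of the 14 introns of ENSG00000287725, and also lay inside TPCN2. Its fold enrichment was 402 in replicate 1 and 389 in replicate 2, from 1744 stacked reads (Poisson 95% interval 1663 to 1828) and 1759 (1678 to 1843). It lay 19881 bp from the nearest TSS, and the nearest TSS of a coding gene was not that of a host. Within 1 Mb on either side, shared regions of all classes stood at 357 per Mb, against 76.0 per Mb over all autosomes, with a median fold enrichment of 7.13 and 7.08 against 9.66 and 10.2. Copy number was not measured in these files, and its part in this height was not tested.

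The next strongest lay in QSOX1, which encodes a secreted enzyme that forms disulfide bonds. This region, chr1:180165253-180173070 in intron 2 of 11, reached 327 and 334 and ranked 4 among all autosomal regions in each replicate. NAV1, a microtubule-associated protein gene, held the one after it, at 246 and 219.6. Further regions among the 10 strongest, in RPS3, MEF2D, SLC23A1, CTNNA1, GALK2 and C6orf132, lay between 196 and 215 in replicate 1 and between 192 and 210.3 in replicate 2. RPS3 encodes a ribosomal protein, MEF2D a transcription factor, SLC23A1 a vitamin C transporter and CTNNA1 the cadherin-binding protein alpha-catenin. Of the regions named, those in RPS3 and at TPCN2 had their nearest coding TSS outside the host.

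Such heights were far from typical. The median fold enrichment of later-intron regions was 8.97 (quartiles 5.75 to 18.4) in replicate 1 and 9.29 (5.97 to 19.0) in replicate 2, or 38 and 41 stacked reads. First-intron regions had the same medians, 8.97 and 9.29, so the ratio was 1.00 in both replicates, equal to within a step of 1 read. Intergenic regions had 9.43 and 9.73, or 40 and 43 stacked reads, and the ratio of later-intron to intergenic medians was 0.953 ± 0.00235 (SD, n = 2). As medians move in steps of 1 read, this SD does not measure how far replicates vary. The peaks of single replicates gave 0.971 and 0.972. By autosome, the later-intron median was below the intergenic one on 16 of 22 in replicate 1. In replicate 2 it was below on 14 and equal on 6. Regions within 3 kb of a TSS were stronger, at 11.7 and 11.9. Across the later-intron regions, fold enrichment ranked alike in both replicates (Spearman 0.940 over 30869 regions, which share their sequence and their cell line), and 93.9% of regions were within 1.5-fold.

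The sets parted at the top of the scale. When all autosomal shared regions were ranked by mean rank over the replicates and cut into 10 equal classes, the strongest class took 6.37% of later-intron regions, compared with 6.77% of first-intron, 7.18% of intergenic and 16.8% of near-TSS regions. Later-intron regions made up 15.3% of the weakest class and 9.39% of the strongest. The plot of fold enrichment by percentile shows the later-intron and first-intron curves lying on each other over most of their course.

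**Figure D1:**
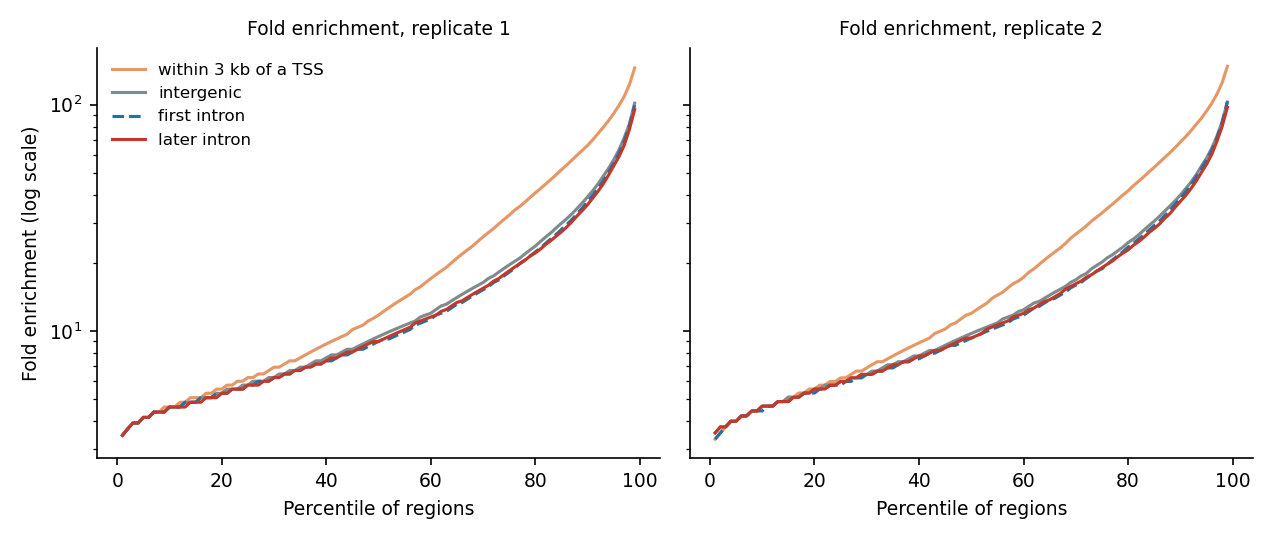
Fold enrichment (log scale) at each percentile from 1 to 99 of the regions of a set, replicate 1 on the left and replicate 2 on the right. The later-intron and first-intron medians coincide at 8.97 and 9.29, and the curve of regions within 3 kb of a TSS rises above the others, with medians of 11.7 and 11.9.

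Later-intron regions had a median width of 337 bp (quartiles 260 to 500) and covered 13.7 Mb. Of them 1589 (5.15%) were wider than 1 kb, compared with 6.57% of first-intron, 5.82% of intergenic and 19.2% of near-TSS regions. The widest, chr16:87826278-87869725 with its midpoint in intron 2 of SLC7A5, a transporter of large neutral amino acids, spanned 43448 bp. It was a single peak in replicate 2 and 4 peaks in replicate 1, with a fold enrichment of 101 and 116. A TSS lay 11197 bp and an exon 3722 bp from its midpoint, both inside the region, so its width and strength belong to the whole stretch and not to the intron alone. GSE1, a gene for a protein of histone deacetylase complexes, held the next, of 9516 bp, and TUFT1, TPPP and QSOX1 held those of 8811, 8054 and 7818 bp. The TPPP region also reached a TSS, 3155 bp from its midpoint, and those of TUFT1 and QSOX1 reached exons, at 1833 and 2571 bp.

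Density was counted against the bases in which a midpoint would have qualified, called eligible here. Later introns offered 478 Mb and held 64.6 regions per Mb, first introns 393 Mb with 84.0, and intergenic sequence 774 Mb with 63.6. The density ratio was 0.770 against first introns and 1.02 against intergenic sequence. The latter fell below 1 with the 50000 strongest peaks of each replicate (0.927), with the exons, first introns and TSSs of protein-coding genes alone (0.733) and at 10 to 30 kb from the nearest TSS (0.980). On each of the 22 autosomes later introns were less dense than first introns, while against intergenic sequence they were less dense on 9 of 22. No replicate spread is attached to these counts, since a shared region needs both replicates.

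Density fell with distance from the nearest TSS. Later introns held 79.9 regions per Mb at 3 to 10 kb, 67.3 at 10 to 30 kb, 51.2 at 30 to 100 kb and 32.0 at 100 to 300 kb. First introns held 100.4, 84.2, 54.4 and 28.7 at the same distances, above later introns up to 100 kb and below them at 100 to 300 kb, where 898 later-intron and 296 first-intron regions were counted. Intergenic sequence held 88.4, 68.7 and 44.0 up to 100 kb, above later introns at 3 to 10 kb and below them at 30 to 100 kb. Median fold enrichment of the later-intron regions moved little over this range, from 8.97 and 9.29 at 3 to 10 kb to 8.05 and 8.85 at 100 to 300 kb. At the 3 kb limit of the rule, 2481 regions of later introns 2 to 3 kb from a TSS had medians of 8.97 and 9.29, and 2183 at 3 to 4 kb had 8.74 and 9.07.

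**Figure D2:**
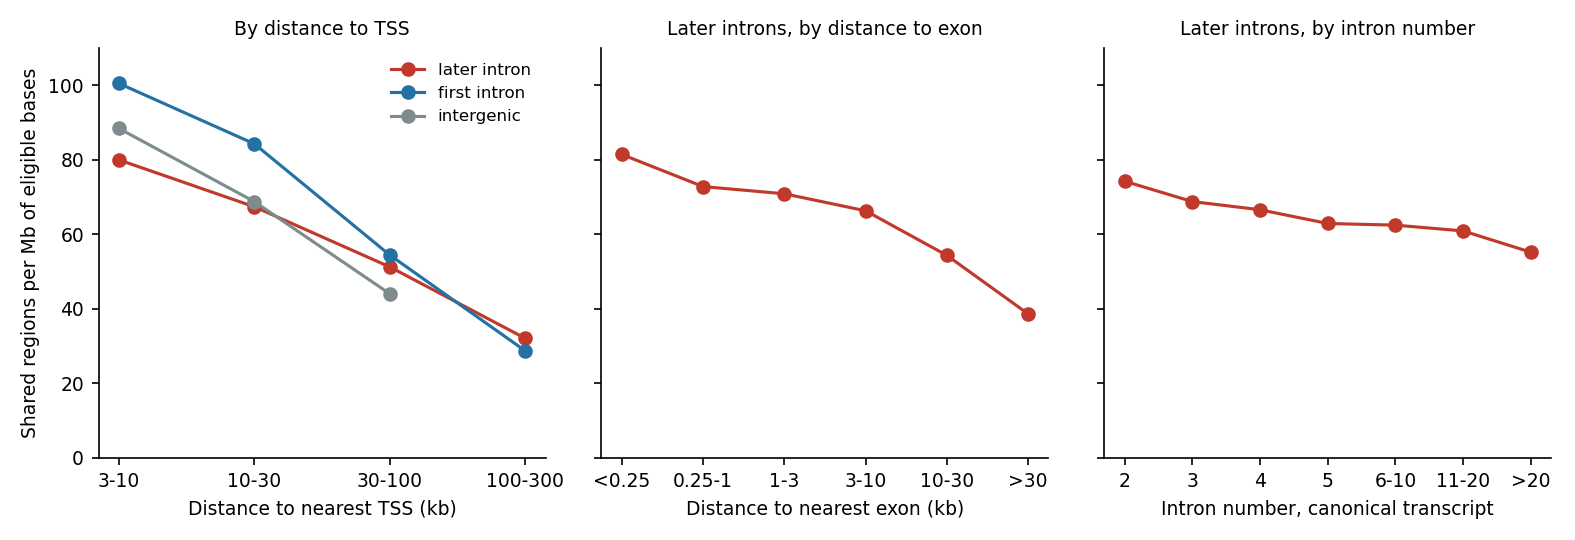
Shared regions per Mb of eligible bases by distance to the nearest TSS in later introns, first introns and intergenic sequence (left), and in later introns by distance to the nearest exon (middle) and by intron number in the canonical transcript (right). Later-intron density drops from 79.9 to 32.0 per Mb over the TSS distances, from 81.4 to 38.6 over the exon distances, and from 74.2 in intron 2 to 55.2 beyond intron 20.

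Density was also highest beside exons. Within 250 bp of an exon it was 81.4 per Mb (2731 regions), it stood at 72.8 from 250 bp to 1 kb, 70.8 from 1 to 3 kb and 66.3 from 3 to 10 kb, and it fell to 54.3 at 10 to 30 kb and 38.6 beyond 30 kb (1540 regions). Strength did not follow this order, with medians of 8.51 and 8.85 next to exons and 9.43 and 9.73 at 3 to 10 kb. By intron number in the canonical transcript, density went from 74.2 per Mb in intron 2 through 68.7, 66.5 and 62.9 in introns 3, 4 and 5 to 62.4 in introns 6 to 10, 60.9 in introns 11 to 20 and 55.2 beyond. Short introns were the densest, with 78.1 per Mb under 5 kb and 41.8 over 100 kb. Toward the 3′ end the order turned: last introns held 74.1 per Mb, and the last of 5 equal stretches of gene bodies 70.5 against 59.6 in the opening one. These positions overlap with each other, and which of them density follows was not tested.

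Most later-intron regions lay nearest to the promoter of their own host. For 26787 (86.8%), the nearest TSS of a coding gene belonged to a host gene, and for 4082 to another gene. The same share over all eligible bases was not computed. Each region lies inside a host by the rule, so without that share the value cannot be set apart from that of any later-intron sequence. Both classes had a median fold enrichment of 8.97 in replicate 1, with 9.51 and 9.29 in replicate 2. Only 1039 regions (3.37%) lay in more than 1 coding gene, and 3167 (10.3%) lay in no intron of a canonical transcript.

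Host genes with an accessible promoter had denser later introns. A promoter was called accessible where a shared region lay within 1 kb of a TSS of the gene. The 3 kb limit keeps the midpoints of the regions counted away from promoters. A wide region could still be counted and reach a promoter, as 2 reached a TSS. Among 12233 coding genes with eligible bases, the 10275 with an accessible promoter held 69.1 regions per Mb and the 1958 without held 40.4, a ratio of 1.71, with a region counted for each of its hosts. Density rose over 4 equal classes of promoter fold enrichment, from 56.7 through 66.0 and 75.4 to 83.8 per Mb. Gene size moved with density too, but the order was the same in the 4 size classes from 10 kb up: genes with 10 to 50 kb of eligible bases held 87.0 with and 56.7 without an accessible promoter, those with 50 to 100 kb 77.9 and 43.1, those with 100 to 300 kb 67.6 and 38.8, and those over 300 kb 39.8 and 23.8. The regions themselves were as strong in both classes, at 8.97 and 9.29 for 28123 regions with an accessible host promoter and 8.97 and 9.51 for 2746 without.

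**Figure D3:**
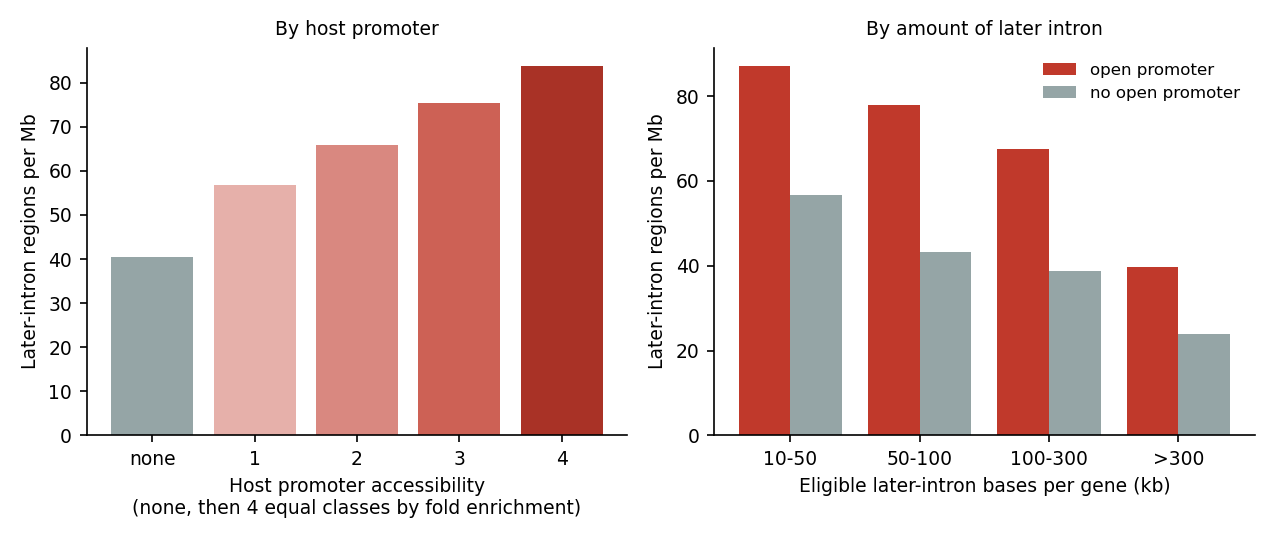
Later-intron regions per Mb of eligible bases, by accessibility of the host promoter (left, no region within 1 kb of a TSS, then 4 equal classes of promoter fold enrichment from weakest to strongest) and by eligible bases per gene for genes with and without an accessible promoter (right). Bars rise from 40.4 to 83.8 per Mb on the left, and the accessible class is the taller in each of the 4 size classes on the right.

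Within the same gene, first and later introns could be set side by side in 2600 genes with at least 20 kb eligible in both. Later introns of these genes held 57.3 regions per Mb and first introns 70.8. First introns, taken over all transcripts of the gene, were the denser in 1379 genes (53.0%), the later introns in 1159 (44.6%), and 62 were equal. The excess of first introns was thus present in the sum, while the order varied from gene to gene. At these densities 20 kb holds few regions, so the order in a single gene is subject to counting error.

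Regions were spread unevenly over hosts. Of the 12233 genes, 7003 held at least 1 region, and 822 genes with 10 or more held 14633 of all regions (47.4%). Over 2384 genes with at least 50 kb of eligible bases, the median density was 49.4 per Mb (quartiles 26.9 to 89.4), the highest was 485, and 101 genes had none. Among 1140 genes with at least 100 kb, 23 held no region, and 14 of these 23 had an accessible promoter. For comparison, 766 of all 892 genes with 100 to 300 kb and 204 of all 248 over 300 kb had one.

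The genes with most regions were mostly long. CAMTA1, a calmodulin-binding transcription activator, held 83 in 771 kb of eligible bases, 108 per Mb. GSE1 held 77 in only 189 kb, 407 per Mb, whereas MACROD2, an ADP-ribose hydrolase gene, held 70 in 1587 kb, 44.1 per Mb. FSTL4 and RUNX1 held 66 each, KAZN 64, COL23A1 63, AOPEP 61, TRAPPC9 59 and CDKAL1 53, the last tied with PRKCE and SLIT3. RUNX1 encodes a transcription factor, KAZN a desmosome-associated protein, COL23A1 a membrane collagen and TRAPPC9 a vesicle-tethering subunit. Of the 10 genes, each had an accessible promoter, and FSTL4, COL23A1, AOPEP and TRAPPC9 held 184 to 253 regions per Mb.

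The densest hosts with at least 50 kb were ENSG00000287725 at 485 regions per Mb, BCAR3 at 456, FAM53B at 423, GSE1 at 407, KCNN3 at 391, ANO1 at 390.3, ADGRB1 at 387, CASZ1 at 376, ENSG00000258539 at 375 and JARID2 at 368. BCAR3 encodes an adaptor linked to antiestrogen resistance, KCNN3 a calcium-activated potassium channel, ANO1 a calcium-activated chloride channel, CASZ1 a zinc finger factor and JARID2 a cofactor of the Polycomb complex PRC2. ENSG00000258539 overlaps FAM53B and shares its regions. Their surroundings were dense as well. Within 1 Mb on either side and outside the gene, shared regions of all classes numbered 356 per Mb around ENSG00000287725, 312 around ADGRB1, 280 around ANO1 and 260 around KCNN3, and between 120 and 190 around the others, against 76.0 over all autosomes. The part that the surroundings play in the density of these genes was not tested.

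**Figure D4:**
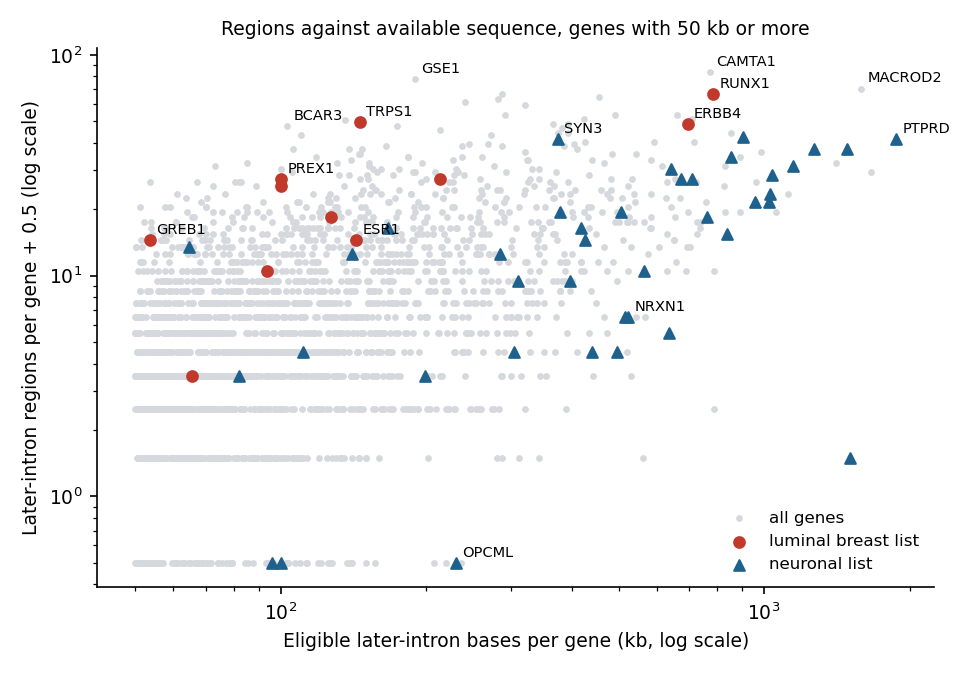
Later-intron regions per gene plus 0.5 against eligible later-intron bases (both on log scales), 1 point for each coding gene with at least 50 kb, with the luminal breast list as red circles and the neuronal list as blue triangles. GSE1 and BCAR3 stand above the cloud with 77 and 47 regions, and OPCML lies at the bottom with none.

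Gene lists by cell type, chosen with earlier results of these data known, differed in density. Later introns of 36 luminal breast genes held 380 regions in 2.85 Mb, 133 per Mb, those of 33 mesenchymal and basal genes 67.6, of 39 blood cell genes 52.3 and of 42 neuronal genes 27.1, against 64.9 over all genes counted the same way. Regions lay in 27 of the luminal, 25 of the mesenchymal and basal, 26 of the blood cell and 38 of the neuronal genes. Of all 12233 genes, 7003 held at least 1. Of the list members with at least 50 kb, 10 of 11 luminal, 12 of 16 mesenchymal and basal, 9 of 19 blood cell and 5 of 40 neuronal genes lay above the median of all such genes, 49.4 per Mb. The strengths did not share this order, with medians of 8.74 and 9.07 in luminal genes, 8.05 and 8.73 in neuronal and 10.9 and 11.3 in blood cell genes. Size and promoter state moved with the lists: the neuronal genes offered 24.5 Mb, and genes over 300 kb as a whole held 37.1 per Mb. Promoters were accessible in 36 of 36 luminal and 33 of 42 neuronal genes, compared with 10275 of 12233 coding genes as a whole. With an accessible promoter required, the values were 133, 67.0, 62.3 and 29.5 in the order luminal, mesenchymal and basal, blood cell and neuronal. Over all genes with an accessible promoter the value was 69.1. Density around the listed genes was not compared between the lists, and copy number was not measured.

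Among luminal genes, RUNX1 held 66 regions, TRPS1 49, ERBB4 48 and both CACNA1D and PREX1 27. TRPS1, a GATA-type zinc finger repressor of breast epithelium, reached 336 per Mb, and PREX1, an exchange factor for the GTPase Rac, 269 per Mb with a strongest region of 151 and 151. ERBB4, a receptor of the EGFR family, was less dense at 69.1 per Mb. Some further genes were looked at after their values had been seen. ESR1, which encodes estrogen receptor alpha, held 14 regions (97.6 per Mb) with medians of 15.4 and 15.4 and a strongest of 75.5 and 72.3. GREB1, an estrogen-induced gene, also held 14 but in 53.7 kb (261 per Mb), with a strongest of 18.2 and 11.3. GATA3 held 3 in 4.14 kb and PGR, the progesterone receptor gene, 3 in 65.7 kb.

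Of the mesenchymal and basal list, COL5A1 held 34 regions (287 per Mb, strongest 183 and 171), LTBP1 27, PARD3B 25, COL4A2 19 and LAMA3 15. COL5A1 and COL4A2 encode fibrillar and basement membrane collagen chains. CDH2, the N-cadherin gene, held none in 125 kb although its promoter was accessible at 12.2 and 13.7. In the neuronal list the counts were 42 in CNTNAP2, 41 each in PTPRD and SYN3, and 37 each in GPC5 and LRP1B, at 46.5, 21.8, 109, 29.2 and 24.9 per Mb. OPCML, a neural adhesion gene, held none in 230.2 kb and NTM, its relative, none in 100.4 kb, both without an accessible promoter. Both lie on chromosome 11, NTM ending at 132336822 and OPCML starting at 132414977, and copy number there was not measured. In the blood cell list ELMO1 held 19, ARHGAP15 and DOCK8 10 each, INPP5D 9 and PLCG2 8.

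The sequence of later-intron regions was richer in G and C than the introns around them. Median GC content over the middle 301 bp was 47.5%, against 40.4% over all eligible bases. It was 47.2% in first-intron, 48.2% in intergenic and 53.5% in near-TSS regions. Over 5 equal classes of strength it was 48.5% in the weakest, 46.5% in each of the next 3 and 49.5% in the strongest.

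Few later-intron regions looked like CpG islands. With at least 55% GC and an observed over expected CpG ratio of at least 0.65 in these 301 bp, 113 (0.366%) were CpG-rich, compared with 0.355% of first-intron, 1.07% of intergenic and 16.6% of near-TSS regions. The 113 were stronger than the rest, with medians of 26.7 and 27.9 against 8.97 and 9.29, and wider, at 622 against 336 bp. Those in EFCC1, PXYLP1, TTLL8 and ZSCAN12 were among the strongest of them, at 94.8 to 119.9 in replicate 1 and 108 to 120.3 in replicate 2.

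Motif letters of 12 factor families were searched on both strands around the midpoints, with N for any base. Matches could overlap those of another motif, as the GRHL and CEBP letters do in the ACSS1 region. A match is a description of the letters and does not show that a factor was bound. At least 1 of the 12 was found within 50 bp of the midpoint in 10295 later-intron regions (33.4%), and 1 of the same letters in reversed order in 3843 (12.4%). Some reversed strings differ from their motif in CpG. Those of CTCF, AP-2, CEBP and NFI hold a CpG that the motif does not spell out, while the ETS and GRHL letters hold one that their reversed strings lack. The reversed AP-2 letters were in 0.311% of later-intron and 3.68% of near-TSS regions. CEBP letters were in 5.77% of later-intron regions and their reversed order in 0.891%. The part of CpG in the contrast of 33.4% with 12.4% was not tested.

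CTCF letters stood out among the motifs by their concentration at the midpoint. The letters CCANNAGNNGGC lay within 50 bp of the midpoint in 1229 later-intron regions (3.98%, Wilson 95% interval 3.77 to 4.21%), as in the POLD3 sequence above, where fold enrichment was 144 and 153. The share was 2.63% (2.47 to 2.81%) in first-intron regions, 4.12% in intergenic and 2.94% in near-TSS regions. Matches were 9.12 times as dense within 50 bp as at 200 to 300 bp from the midpoint, against 6.55 times in first introns and 8.64 times in intergenic regions. The share was higher in later than in first introns on 20 of 22 autosomes, and at 3 to 10 kb from a TSS it was 4.22% against 2.46%. Per Mb of eligible bases, regions with these letters were somewhat more frequent in later introns, 2.57 against 2.21 in first introns. Regions without them went the other way, at 62.1 and 81.8. At 3 to 10 kb from a TSS, regions with the letters numbered 3.37 per Mb in later and 2.47 in first introns.

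CTCF letters also went with strength. Over 5 equal classes of later-intron regions by strength the share rose from 1.81% in the weakest through 2.82%, 4.29% and 5.47% to 5.51% in the strongest, 3.04 times the weakest. Regions with the letters had medians of 13.8 and 13.3, and those without 8.97 and 9.29. The letters in reversed order were found in 10 regions, with medians of 6.44 and 6.30.

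**Figure D5:**
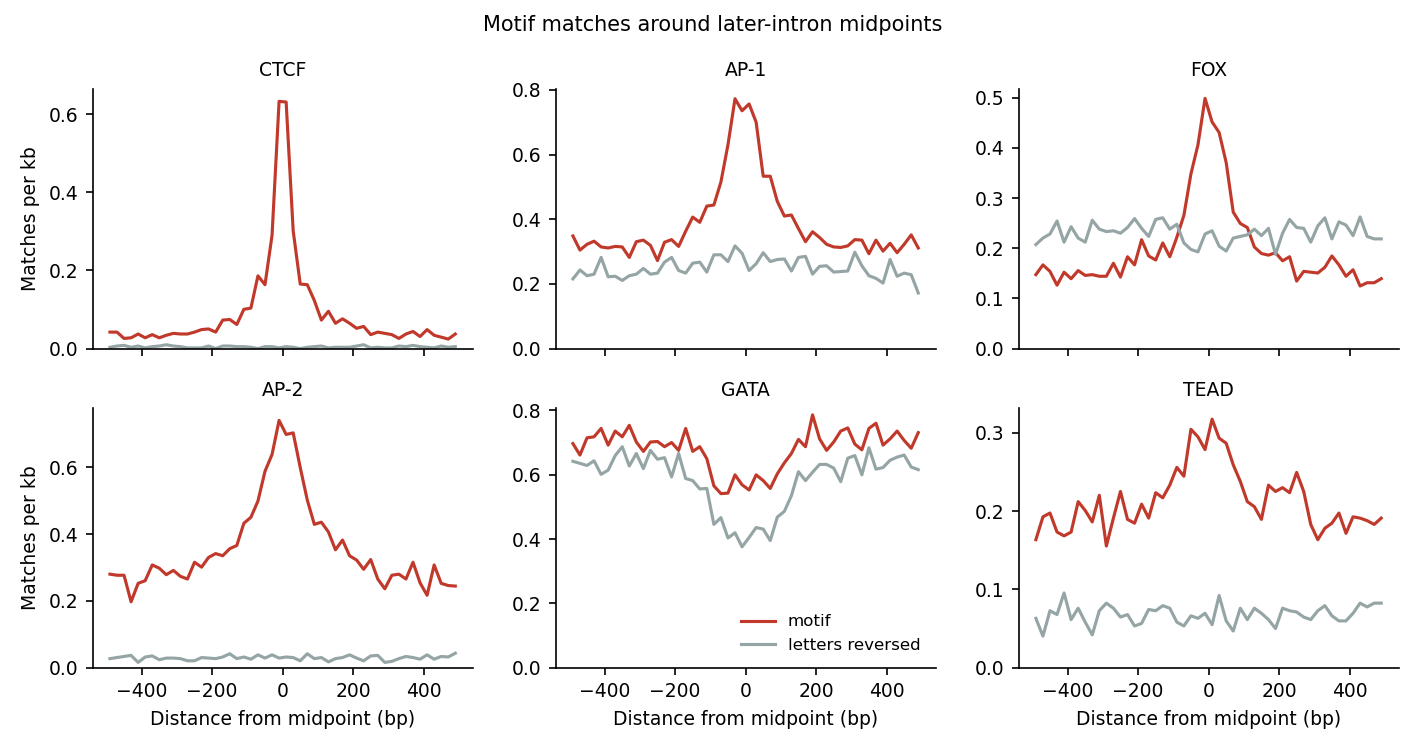
Matches per kb in 20 bp bins against the distance from the midpoint of later-intron regions, for 6 motifs (red) and the same letters in reversed order (grey), each panel with its own scale. CTCF, AP-1, FOX and AP-2 letters peak at the midpoint, with centre over flank ratios of 9.12, 2.22, 2.67 and 2.30, TEAD letters less so at 1.45, and GATA letters dip to 0.817 and their reversed order to 0.658.

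AP-1, FOX and AP-2 letters were also denser at the midpoint, without an order by strength. AP-1 dimers of FOS and JUN proteins bind TGANTCA, which was found in 2123 later-intron regions (6.88%), with a centre over flank ratio of 2.22. Its share was 6.46% in first-intron and 7.13% in intergenic regions, and 6.69% in the weakest against 6.64% in the strongest of the 5 classes. TGTTTAC, read by forkhead factors such as FOXA1, was found in 1296 (4.20%), with a ratio of 2.67 and shares of 3.73% and 3.85% in first-intron and intergenic regions. GCCNNNGGC, bound by AP-2 factors, was found in 1996 (6.47%) with a ratio of 2.30, and in 5.83% of first-intron, 6.40% of intergenic and 8.74% of near-TSS regions. The strongest region with FOX letters lay in PER2, a circadian repressor gene, at 167 and 171, and that with AP-2 letters in RPS3, at 204 and 210.3.

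The share of regions with FOX letters differed with distance from exons. It was 3.19% (2.59 to 3.91%) within 250 bp of an exon and 6.04% (4.96 to 7.34%) beyond 30 kb. The FOX letters in reversed order were in 1.90% (1.45 to 2.49%) and 2.86% (2.14 to 3.81%) at the same ends. Per eligible Mb there were 2.59 and 2.33 regions with FOX letters, so the share and the density did not move the same way. In intergenic regions the FOX share was 3.09% at 3 to 10 kb and 4.92% at 30 to 100 kb from a TSS. The CTCF share was 4.60% (4.07 to 5.20%) from 250 bp to 1 kb and 3.0% (2.56 to 3.51%) at 10 to 30 kb, while the values within 250 bp, 4.32% (3.62 to 5.15%), and beyond 30 kb, 3.12% (2.36 to 4.11%), had overlapping intervals. The intervals of the AP-1 share at the same ends, 5.86% (5.04 to 6.80%) and 7.34% (6.14 to 8.75%), overlapped.

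The other letters were rare or weakly placed. GRHL letters, AACCGGTT, bound by grainyhead-like factors of epithelia, were found in 34 later-intron regions with a ratio of 5.67, as in the ACSS1 region of 168 and 189. The full estrogen response element, GGTCANNNTGACC, was found in 11 with a ratio of 2.75, and its letters in reversed order in 20 with a ratio of 2.86. The ratio thus did not set the element apart from its control, and both rest on few matches. The POC1B region, one of the 11, had 34.7 and 42.2. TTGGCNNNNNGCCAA of the NFI factors was found in 15 and CCGGAAGT of ETS factors in 29. TEAD (CATTCCA, 904 regions) and RUNX (TGTGGTT, 850) had ratios of 1.45 and 1.34, and CEBP (TTGCNNAA, 1781) 1.06. GATA letters, AGATAA, were found in 1714 and were sparser at the midpoint than in the flanks, at a ratio of 0.817, also 0.799 in first-intron and 0.776 in intergenic regions. The same letters in reversed order had lower ratios, 0.658, 0.651 and 0.682 in the same order, and the GC content of later-intron regions was 49.3% in the centre and 44.5% in the flanks. GALNT10 held the strongest region with them, at 182 and 172.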

How the data were processed

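ATAC-seq of CAMA-1 cells was available as 1 peak list for each of 2 biological replicates. The authors had trimmed the reads (Trim Galore 0.6.5), aligned them to hg38 (Bowtie2 2.3.5.1) and called peaks in each replicate (MACS2 2.2.6), according to the submitters' processing notes. For each peak, the deposited values were a score, the fold enrichment, which is a ratio of peak height to background, the −log10 p-value and the −log10 q-value. The deposited score was the −log10 q times 10, rounded down, and was not used further.

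Overlapping peaks (at least 1 bp) on chromosomes 1 to 22 were merged, and regions with peaks of both replicates were kept. The strength of a region in a replicate was the fold enrichment of its strongest peak. Heights in stacked reads were read from the steps of the fold enrichment. As the lists gave no summits, midpoints were used. Introns, exons and TSSs came from all transcripts of GENCODE release 44. Eligible bases were those other than N where a midpoint would qualify by the same rule. Repeats were counted as eligible. Gene coordinates and sequences are those of hg38.

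Genes named are the 10 with most regions, the 10 densest with at least 50 kb, and from each list the 5 with most regions and those with at least 100 kb and no region. Further ones were chosen after their values were seen. Regions named are the 10 of best mean rank over the replicates and the strongest with each motif outside chromosome 8, and the widest and the CpG-rich ones were chosen by their values. Of these, 2 regions are not reported here. The members, gene lists, motifs and alternatives were chosen with earlier results of these data known. No test was run, since both replicates measure 1 condition. Intervals are Wilson intervals for shares and Poisson intervals for heights. The functions were tested on simulated data, and all 8 simulated quantities were recovered. Python 3.11.15, numpy 2.4.6, pandas 2.3.3, scipy 1.17.1, statsmodels 0.14.6 and matplotlib 3.10.9 were used. The closing section gives the effect of other peak thresholds, overlaps, TSS distances, annotations and motif windows.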

Additional observations from a re-analysis of the deposited data

How the results depend on the processing

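No paired analysis was possible because the replicate numbers occur within a single condition. Results were recomputed under 93 alternatives over 11 results, of which 38 stayed within 1.5 times (the count of regions) or within the spread between the replicates (the ratios and shares), 52 moved further and 3 changed side. The spread of the fold enrichment ratios was 0 to first introns and 0.00235 to intergenic sequence, so even small changes counted as moves. The cause of these moves was not tested beyond the construction of each alternative. The lists give neither summits nor read counts, copy number was not measured, and repeats count as eligible bases, so densities rest on midpoints and on sequence that reads may not reach.

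With the 50000 strongest peaks of each replicate, later-intron regions numbered 5204 (11.4% of shared regions), the median fold enrichment ratio was 0.984 to first introns and 0.981 to intergenic sequence, and the density ratio was 0.747 to first introns and 0.927, on the other side of 1, to intergenic sequence. With a −log10 q of at least 10, the share was 14.5%, the fold enrichment ratios 1.02 and 0.965, the density ratio to intergenic sequence 1.00, that of accessible over other promoters 1.60, and the centre over flank ratio 10.3 for CTCF and 2.53 for FOX letters. With a reciprocal overlap of 50%, the fold enrichment ratios were 1.02 and 0.971 and the promoter ratio 1.64.

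More than 1 kb from every TSS, the share was 17.2% and the density ratio to first introns 0.737. More than 10 kb away, 19336 regions remained (9.23%), with fold enrichment ratios of 1.03 and 0.988 and density ratios of 0.803 and 1.04. At 10 to 30 kb alone, the density ratios were 0.800 to first introns and 0.980, below 1, to intergenic sequence. Against all intergenic bases the density ratio was 1.18.

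With basic transcripts, 46535 regions qualified (22.2%), the fold enrichment ratios were 1.01 and 0.964, the density ratio to intergenic sequence 1.09 and the promoter ratio 1.57. With exons, first introns and TSSs of protein-coding genes alone, the share was 16.5%, the fold enrichment ratio to first introns 1.02, and the density ratio to intergenic sequence 0.733, below 1. The order of later-intron and intergenic density therefore depends on the annotation and the peaks used, while later introns were less dense than first introns under all 10 alternatives, at ratios of 0.737 to 0.803. A promoter window of 100 bp gave a promoter ratio of 1.52. With −log10 q as the strength, the ratio to intergenic sequence was 0.925.

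Within 25 bp of the midpoint, centre over flank ratios were 13.3 for CTCF, 2.34 for AP-1 and 2.90 for FOX letters. Within 100 bp they were 6.27, 1.89 and 2.18. With flanks 400 to 500 bp away, they were 11.5 for CTCF and 3.01 for FOX letters.

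Leaving out each replicate gave 34991 to 37600 regions (14.6 to 14.9%), fold enrichment ratios of 1.00 to 1.03 to first introns and 0.971 to 0.972 to intergenic sequence, density ratios of 0.763 to 0.772 and 1.02 to 1.03, and promoter ratios of 1.72 to 1.78. Centre over flank ratios were then 8.49 to 9.23 for CTCF, 2.15 to 2.28 for AP-1, 2.65 to 2.73 for FOX letters and 2.67 to 3.75 for the estrogen response element.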

Other observations

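Autosomes differed in how many later-intron regions they carried. Density was lowest on chromosomes 18 (48.3 per Mb) and 4 (49.1 per Mb) and highest on chromosomes 22 (115 per Mb) and 19 (99.2 per Mb). Intergenic density on the same chromosomes was 43.8, 45.0, 106 and 91.2 per Mb. On chromosome 21, later introns held 72.5 per Mb against 39.2 in intergenic sequence. Median fold enrichment of later-intron regions had a lowest value of 8.28 and a highest of 9.89 over the autosomes in replicate 1, and of 8.62 and 10.8 in replicate 2, a narrower range than that of density.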
